A study of Mus musculus with 21 samples.

Results

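The ATP-binding cassette (ABC) transporter family was followed in tissue labelled neocortex from rNLS8 mice, a model of TDP-43 proteinopathy. Members were chosen by name: every row of the count table whose symbol is Abc, a subfamily letter from a to g, a number and at most 1 more letter. This gave 50 of 48474 rows, with 16 in subfamily A, 10 in B, 10 in C, 4 in D, 1 in E, 3 in F and 6 in G. The 2 further rows named Abcf1-2 and Abcf1-3 carry a copy suffix and were left out of the family, and their values are given beside Abcf1.

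Messenger RNA of 21 mice was sequenced as 1 library per mouse, 11 labelled WT and 10 labelled TG. TG mice are bigenic rNLS8 animals, in which the neurofilament heavy chain promoter (NEFH-tTA) drives a human TDP-43 lacking its nuclear localisation signal (tetO-hTDP-43ΔNLS), almost only in neurons. The transgene stays off while the mice eat doxycycline. WT mice are monogenic littermates, which carry only 1 of the 2 transgenes, and which of the 2 is not labelled. The lines were crossed back to C57BL/6J. All 21 mice, of both genotypes, had a non-targeting antisense oligonucleotide (ASO) injected into the cerebral ventricle, 350 µg in 10 µL, at 17 to 19 weeks of age. They ate doxycycline chow at 200 mg/kg until 2 weeks after the injection, and were killed 3 weeks after the change to normal chow. The mice came in batch A (4 WT, 3 TG) and batch B (7 WT, 7 TG). Because every mouse carried the ASO, no untreated level of any transporter was measured here. The sex of the mice is not labelled. The labels give the tissue as neocortex and the study's methods as cortex, whereas a legend of the study names hippocampus for a cohort with these group sizes, so the region was taken from the labels.

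ABC transporters use ATP to move lipids, sterols, peptides, metal complexes or drugs across a membrane. A transporter pairs nucleotide-binding domains with membrane-spanning domains, either in 1 polypeptide or in a dimer. Subfamily A moves mostly lipids, B holds the P-glycoproteins and the mitochondrial transporters, C the multidrug resistance proteins and the sulphonylurea receptors, D the peroxisomal transporters of fatty acids, and G sterol and drug exporters. Subfamilies E and F have no membrane-spanning domain and act on ribosomes. In brain, ABC proteins are known for loading cholesterol onto apolipoproteins and for the efflux pumps of the blood-brain barrier.

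The 21 libraries held 20700912 to 22263809 counts each, with a median of 21242975. Members took 0.139% to 0.157% of all counts in WT and 0.152% to 0.179% in TG libraries. The libraries carried all 8 neuron, 8 astrocyte, 8 oligodendrocyte and 8 microglia markers that were looked up, as brain tissue should, but these markers do not tell cortex from other brain regions. Mice are named by their labels, and T61340_TG of batch A stood apart. Each library was set against the mean of the other libraries of its own genotype. The deviations of T61340_TG ran against exon length across 16121 genes (Spearman's rho of -0.48, a description across genes). The other 20 libraries lay between -0.18 and 0.33. Among the TG libraries, T61340_TG was the lowest for 12 of the 39 members that could be tested, so it is named below where it matters. Summed neuron markers ranged from 196457 to 247499 normalized counts in WT and from 141801 to 177560 in TG, and 6 of the 8 fell (over all rows tested, 23.0% rose and 21.7% fell). Summed microglia markers ranged from 7857 to 9125 in WT and from 8295 to 12219 in TG, where 5 of 8 rose and 1 fell. Of the 8 astrocyte markers 5 fell and 1 rose, and their sum was 106882 to 134288 in WT against 95276 to 119973 in TG. Oligodendrocyte markers (94199 to 158044 in WT, 90469 to 160685 in TG), pericyte markers (5607 to 6893, 5329 to 6449) and fibroblast markers (2691 to 4612, 2628 to 3629) had none of 8 past the test. Endothelial markers summed to 4600 to 5300.2 in WT and 3879 to 5005 in TG, with 1 of 8 higher and 2 lower. No marker was at 0 in either genotype. The part of these shifts in the results for the transporters was not tested, and in bulk tissue fewer cells of a type and less RNA per cell cannot be told apart.

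Of the 50 members 39 had enough counts to be tested (edgeR's quasi-likelihood test with batch as covariate, Benjamini-Hochberg adjustment over all 18248 rows tested, threshold 0.05). Of these 16 passed, 41.0% of the tested members, against 44.7% of all rows tested. In TG mice 11 members rose (28.2%, against 23.0% of all rows) and 5 fell (12.8%, against 21.7%). The share of the family that changed was thus near the background of these libraries. The median log2 fold change was 0.07 over the 39 members and -0.00067 over all rows, and 24 of the 39 were above 0. Changes were small. The largest was 0.57 on the log2 scale, and the median size over the 16 was 0.29. Abca5, Abcb6, Abcc8, Abca1, Abcd4, Abcg4, Abca7, Abca3, Abcb9, Abca2 and Abcg2 were the members that rose, in order of size, and Abcd2, Abcb4, Abcd3 and Abce1 were among those that fell. Scaling by library size alone, which moved the median of all rows to 0.08, gave 19 higher and 3 lower, against 32.0% and 15.1% of all rows under that scaling. Values of all 10 TG libraries lay outside the WT range for 3 of the 39 members, with Abcb6 above it and Abcd2 below it among them, which is 7.69% against 7.65% of all rows.

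**Figure D1:**
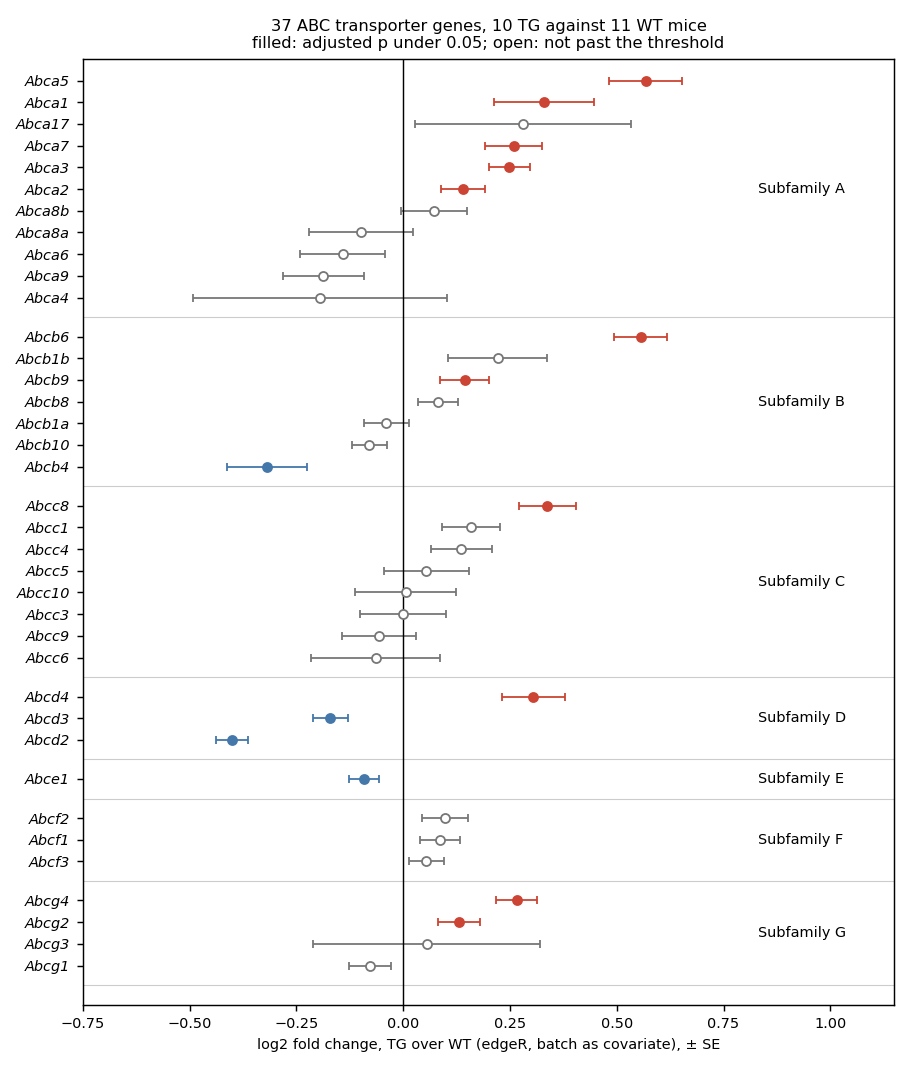
Log2 fold change of TG over WT for 37 tested members, grouped by subfamily, with bars of 1 SE. Filled points passed the threshold, red for higher and blue for lower in TG. All 5 filled points of subfamily A lie above 0, whereas B and D hold points on both sides, from -0.40 for Abcd2 to 0.56 for Abcb6.

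The levels of the members in WT mice were compared per length, as CPM (counts scaled to the library total) per kilobase of exon model. They spanned 403-fold among the 39 tested members. The ribosome-acting Abcf2 had the highest level at 36.0 ± 2.86 (SD, n = 11). Abca2, a sterol-handling protein of late endosomes and lysosomes known from oligodendrocytes, followed at 31.1 ± 2.30. Abcf1 (16.8 ± 1.59, without its copy rows), Abcf3 (15.1 ± 0.908) and the sterol exporter Abcg4 (11.7 ± 0.725) came next. In all, 10 members were above 10 and 9 were below 1, the latter being Abcd4, Abca6, Abcc3, Abcb1b, Abcb4, Abca4, Abcc6, Abcg3 and Abca17. Neighbours in this order often could not be separated: in 26 of 38 neighbouring pairs the means were closer than the larger of the 2 SDs. Members that passed the test stood in most parts of this order, from Abca2 down to Abcb4 at 0.497 ± 0.0778.

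**Figure D2:**
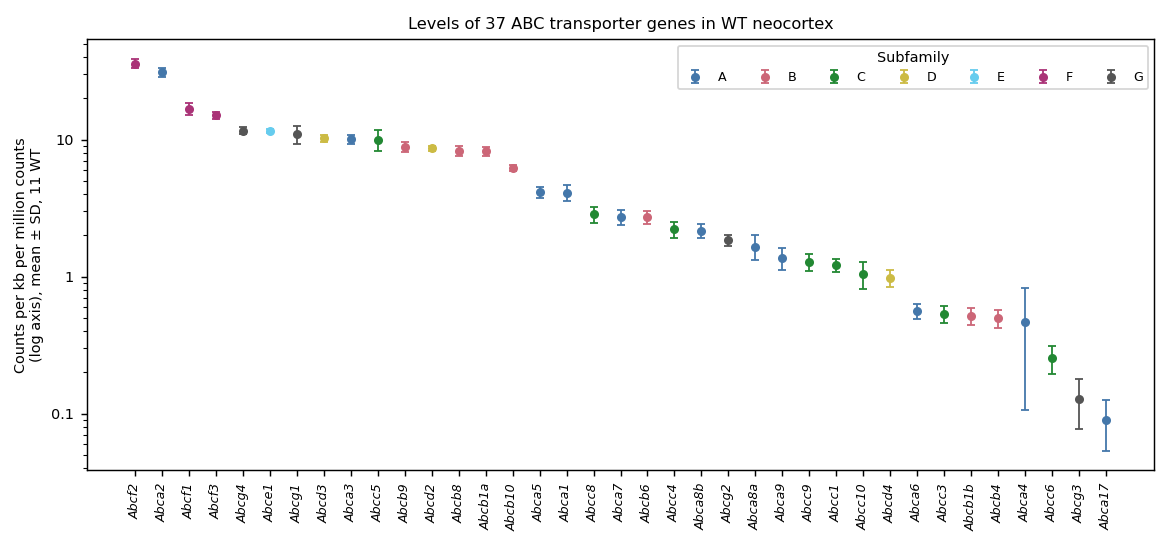
Mean level of 37 tested members in 11 WT libraries, in CPM per kilobase of exon model on a log axis, with bars of 1 SD and colours for subfamilies. Levels fall from 36.0 for Abcf2 to 0.0894 for Abca17, and subfamily F takes 3 of the first 4 places.

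The 11 members that were not tested had few counts over all 21 libraries. In subfamily A these were Abca12, a lipid transporter of skin (77 counts), Abca13 (70 counts), Abca14 (13), Abca15 (14) and Abca16 (0). In B they were Abcb11, the bile salt export pump (6), and Abcb5 (0). In C they were Abcc2, which exports conjugated bilirubin from liver (62), and Abcc12 (201). In G they were Abcg5 (12) and Abcg8 (5), which together export plant sterols in gut and liver. For Abca16 and Abcb5 a count of 0 allows up to 3 counts per library, that is 0.135 to 0.145 CPM, counting error only.

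Promoter sequences are printed for Abca5 and Abcb6, the 2 members with the largest rise, and for Abca1, whose promoter holds the liver X receptor (LXR) element through which sterols are known to raise it. They are the RefSeq sequences of build GRCm38.p6, from 250 bases before to 50 bases after the start of the gene, all on the minus strand: Abca1 at chr4:53159846-53160145, Abca5 at chr11:110337667-110337966 and Abcb6 at chr1:75180343-75180642. Capitals mark matches, on either strand, to the letters CACGTG (the E-box), GGGCGG (the GC box), AGGTCA (a nuclear receptor half-site) and TGACCNNNNNTAACC (the LXR element of Abca1), and no 2 marked matches overlap.
Abca1: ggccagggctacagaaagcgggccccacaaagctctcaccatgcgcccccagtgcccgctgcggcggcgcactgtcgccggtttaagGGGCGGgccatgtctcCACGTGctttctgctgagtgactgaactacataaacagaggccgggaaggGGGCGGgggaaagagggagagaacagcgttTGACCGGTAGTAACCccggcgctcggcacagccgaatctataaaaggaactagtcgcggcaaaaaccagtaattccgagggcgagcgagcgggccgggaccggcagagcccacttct
Abca5: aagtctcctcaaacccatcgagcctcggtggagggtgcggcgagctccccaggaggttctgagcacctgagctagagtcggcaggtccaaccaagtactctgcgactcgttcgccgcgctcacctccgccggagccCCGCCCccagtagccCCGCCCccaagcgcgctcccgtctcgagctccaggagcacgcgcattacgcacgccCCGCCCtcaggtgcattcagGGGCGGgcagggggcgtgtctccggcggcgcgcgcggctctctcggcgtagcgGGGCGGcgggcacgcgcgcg
Abcb6: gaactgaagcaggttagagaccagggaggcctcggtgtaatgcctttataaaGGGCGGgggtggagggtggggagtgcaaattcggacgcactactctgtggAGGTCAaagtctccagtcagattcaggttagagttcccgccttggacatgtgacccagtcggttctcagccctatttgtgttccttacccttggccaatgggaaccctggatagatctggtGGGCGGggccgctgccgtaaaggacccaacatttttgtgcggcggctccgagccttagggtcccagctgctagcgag
In the Abca1 promoter the E-box starts at -147 and the LXR element at -67 from the gene start, with 2 GC boxes. Abca5 has 5 GC boxes, and Abcb6 has 2 GC boxes and 1 half-site. The letters of the LXR element were taken from Abca1, so its match there was given, and 16 of 32841 promoters hold it (0.0487%), 1 of the 45 promoters of 38 member genes in the table. GC boxes are in 46.7% of the member promoters against 35.7% of all promoters of this length, E-boxes in 13.3% against 7.15% and half-sites in 15.6% against 16.3%. Such matches describe letters and were not tested as binding sites.

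In subfamily A, 5 of 11 tested members rose and none fell, where 23.0% of all rows rose and 21.7% fell. Abca5 (ENSMUSG00000018800, chr11:110269369-110337716, minus strand, GRCm38), a lipid transporter of late endosomes and lysosomes, showed the largest change of the family. Where 3 normalized counts are given for a genotype, they are its lowest, median and highest library. Abca5 had 937, 993 and 1282 in WT and 917, 1561 and 1992 in TG. The groups were apart but for 1 library: 9 of 10 TG mice lay above every WT mouse, and T61340_TG lay below all of them. On the log2 scale TG exceeded WT by 0.57 ± 0.0863 (SE, adjusted p = 8.51e-06), with 0.58 in batch A and 0.56 in batch B, and without T61340_TG it was 0.64. The fitted level was 48.2% higher in TG than in WT.

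Abca1 (chr4:53030787-53159895), which exports cholesterol and phospholipid to apolipoproteins, rose less and with a wide spread. It had 703, 896 and 1113 normalized counts in WT, and 649.6, 1115 and 1681 in TG. Here 5 TG mice lay above the WT range, T61340_TG lay below it and 4 lay inside. The rise was 0.33 ± 0.117 on the log2 scale (adjusted p = 0.0247), 0.36 in batch A and 0.32 in batch B. The call rested on single TG libraries: the adjusted p was 0.0724 without T60303_TG, 0.0520 without T61342_TG and 0.0586 without T_69531_TG, and 0.000884 without T61340_TG, where the log2 fold change was 0.41. T61340_TG had the lowest count of all 21 libraries for both Abca1 and Abca5, whose exon models are long at 10363 and 11437 bases. The part of the length trend of T61340_TG in these 2 values was not tested.

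Abca3 (chr17:24351950-24410201), known for packing surfactant lipids into lamellar bodies in lung, rose. Its normalized counts were 1753, 2102 and 2302 in WT and 2235, 2484 and 2817 in TG, and 8 of 10 TG mice exceeded every WT mouse. TG mice were higher by 0.25 ± 0.0476 on the log2 scale (adjusted p = 0.000148), 0.40 in batch A and 0.18 in batch B. Another gene, D330041H03Rik, overlaps 914 bases of it on the opposite strand, and whether counting used the strand is not given in the sources used here.

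Abca7 (chr10:79996494-80015572), a phospholipid transporter and a risk gene for Alzheimer's disease, had 342, 420.3 and 487 normalized counts in WT and 404, 474 and 563 in TG. The ranges overlapped, and 3 TG mice were above the WT range. The increase on the log2 scale was 0.26 ± 0.0661 (adjusted p = 0.00253), 0.39 in batch A and 0.20 in batch B. Abca2 (chr2:25428703-25448540) is the member with the most counts, 125375 over all libraries. It moved little, from 4887, 5745 and 6252 in WT to 5531, 6301 and 7289 in TG, with 6 TG mice above the WT range. On the log2 scale TG exceeded WT by 0.14 ± 0.0518 (adjusted p = 0.0313), 0.20 in batch A and 0.11 in batch B. Abca2 was not called without T61345_WT (adjusted p = 0.0567), T_70262_WT (0.0624), T60303_TG (0.0516), T61342_TG (0.0690) or T_70267_TG (0.0679).

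Abca5 sits in a row of related genes on chromosome 11, in the order Abca8b, Abca8a, Abca9, Abca6 and Abca5, all on the minus strand. None of the other 4 passed the test. Their log2 fold changes were 0.07 ± 0.0767 for Abca8b, -0.10 ± 0.122 for Abca8a, -0.19 ± 0.0949 for Abca9 and -0.14 ± 0.0996 for Abca6, with adjusted p between 0.114 and 0.544. Abca8a and Abca8b are close copies whose reads can be shared, so their separate values are uncertain. T61340_TG had the lowest normalized counts of all 21 libraries for Abca8b (226), Abca9 (150.3) and Abca6 (33.3). Without T61340_TG the log2 fold changes moved to 0.13 for Abca8b, -0.04 for Abca8a, -0.11 for Abca9 and -0.07 for Abca6, and none passed. The rest of subfamily A did not pass either. Abca17 had 0.28 ± 0.252 on 252 counts in all.

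Abca4 (chr3:122044443-122180123), the retinoid lipid flippase of photoreceptors, had the widest spread between WT mice among tested members, with a coefficient of variation of 78.0% there and 44.5% in TG. Its log2 fold change was -0.20 ± 0.298 (adjusted p = 0.628), -1.11 in batch A and 0.28 in batch B. Abca4 ran from 49.0 normalized counts in T61342_TG to 389 in T61334_WT. The mouse with the highest count also had the highest summed choroid plexus markers, 48842 normalized counts, and the 3 mice with the lowest Abca4 had 669, 516 and 615. The 7 mice with the most Abca4 were the 7 with the most choroid plexus marker counts. Of the 7 with the least Abca4, 6 were among the 7 with the lowest marker sum. On average Ttr made up most of this sum, with a WT mean of 9774 normalized counts against 512 for Kl, the next marker. None of the 8 choroid plexus markers differed by genotype past the test, and their sum ranged from 516 to 48842 in WT and from 669 to 24571 in TG.

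**Figure D3:**
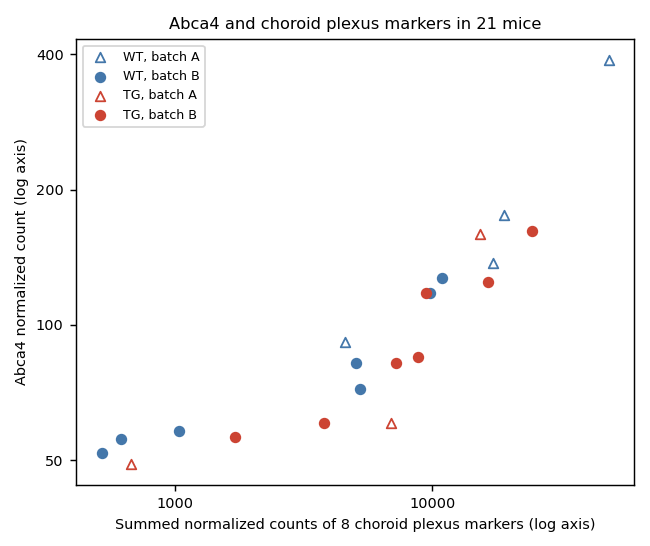
Normalized counts of Abca4 in each of the 21 mice against the summed normalized counts of 8 choroid plexus markers, both on log axes, with colours for genotype and shapes for batch. Abca4 is at 389 in T61334_WT, the mouse with the highest marker sum, and both genotypes and batches lie along the same rise. On average Ttr makes up most of the marker sum.

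In subfamily B, 2 of 8 tested members rose and 2 fell (23.0% and 21.7% of all rows). Abcb6 (ENSMUSG00000026198, chr1:75171717-75180392, minus strand), which transports porphyrins and is found in mitochondria and lysosomes, was higher in each TG mouse than in any WT mouse. Normalized counts were 276, 313 and 368 in WT and 402, 473 and 519 in TG. The lowest TG mouse was thus above the highest WT mouse. The rise was 0.56 ± 0.0628 on the log2 scale (adjusted p = 1.13e-07), 0.74 in batch A and 0.47 in batch B, which is 47.0% higher. The annotation places a second gene, Gm29253, over 2932 bases of Abcb6 on the same strand, so reads there could belong to either. Of the mitochondrial members, Abcb8 had 0.08 ± 0.0466 and Abcb10, which serves haem synthesis, -0.08 ± 0.0410, neither past the test.

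Abcb4 (chr5:8893717-8959231), which flips phosphatidylcholine into bile in liver, was rare here, with 1938 counts in all. Normalized counts were 83.5, 97.8 and 132 in WT and 65.2, 81.5 and 96.0 in TG, and 5 TG mice lay below the WT range. The log2 difference was -0.32 ± 0.0936 (adjusted p = 0.00732), -0.20 in batch A and -0.38 in batch B. Abcb9 (chr5:124061530-124095798), a lysosomal peptide transporter, rose by little: 945, 1112 and 1203 in WT against 1030.1, 1220.2 and 1456 in TG, with 5 TG mice above the WT range. TG mice were higher by 0.14 ± 0.0572 on the log2 scale (adjusted p = 0.0430), 0.26 in batch A and 0.09 in batch B. This call was not stable. It was lost without any 1 of 13 libraries (T61331_WT, T61334_WT, T61345_WT, T_70260_WT, T_70262_WT and T_70264_WT, T61340_TG, T61342_TG, T_69524_TG, T_69526_TG, T_70252_TG, T_70261_TG and T_70267_TG), with adjusted p from 0.0516 to 0.108, the highest without T61340_TG, where the log2 fold change was 0.10. The P-glycoproteins Abcb1a (-0.04 ± 0.0531) and Abcb1b (0.22 ± 0.117) did not pass the test, and as close copies they may share reads. Abcb1b ranged from 0.12 without T60303_TG (adjusted p = 0.384) to 0.28 without T61342_TG, where it passed (adjusted p = 0.0440).

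In subfamily C, 1 of 8 tested members rose, against 23.0% of all rows. Abcc8 (ENSMUSG00000040136, chr7:46104523-46180033, minus strand) is SUR1, the sulphonylurea receptor that regulates ATP-sensitive potassium (K-ATP) channels. Normalized counts were 419, 491 and 635 in WT and 542, 647 and 724 in TG, and 7 TG mice exceeded every WT mouse. Its log2 fold change was 0.34 ± 0.0663 (adjusted p = 0.000194), but 0.61 in batch A and 0.21 in batch B. The difference between the batches was 0.36 (unadjusted p = 0.00682 in edgeR's interaction test), which did not pass adjustment. The pore subunits Kcnj11 (0.08 ± 0.0578) and Kcnj8 (-0.09 ± 0.0787) did not pass the test, nor did Abcc9, the sister receptor SUR2 (-0.06 ± 0.0869).

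None of the drug and anion exporters of subfamily C passed. Abcc1 had 0.16 ± 0.0671 (adjusted p = 0.0576), and it passed without any 1 of 5 libraries, T61333_WT, T_69523_WT, T61340_TG, T_69526_TG and T_70263_TG, with adjusted p from 0.0139 to 0.0449. Abcc4 had 0.14 ± 0.0720 and Abcc5, the most abundant of them per length, 0.05 ± 0.0986. Abcc10 (0.01 ± 0.118), Abcc3 (-0.00057 ± 0.10) and Abcc6 (-0.06 ± 0.151) were close to no change, within wide errors.

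In subfamily D, 2 of 4 members fell and 1 rose, and all 4 were tested (21.7% of all rows fell and 23.0% rose). Abcd2 (ENSMUSG00000055782, chr15:91145871-91191799, minus strand), a peroxisomal importer of very long-chain fatty acids, had the smallest adjusted p of the family. Normalized counts were 1045, 1129.6 and 1211 in WT and 804, 844 and 969 in TG. Every TG mouse lay below every WT mouse, and T_69531_TG lay nearest to them. On the log2 scale TG differed from WT by -0.40 ± 0.0371 (adjusted p = 5.22e-09), -0.41 in batch A and -0.39 in batch B, and the fitted level dropped by 24.3%. Its spread between mice was narrow, with coefficients of variation of 4.52% in WT and 5.46% in TG.

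Abcd3 (chr3:121758774-121815302), the most abundant peroxisomal member per length, fell less, from 1386, 1463 and 1608 in WT to 1105, 1375 and 1427 in TG. In 6 TG mice it was below the WT range. The log2 difference was -0.17 ± 0.0409 (adjusted p = 0.00145), -0.22 in batch A and -0.14 in batch B, and it was not called with scaling by library size alone (adjusted p = 0.0730). Abcd4 (chr12:84601464-84617413) differs from the others in place and cargo, as it is a lysosomal protein that moves cobalamin to the cytosol. It rose, from 129.7, 171 and 221 in WT to 187, 206 and 259 in TG, with 4 TG mice above the WT range. The increase on the log2 scale was 0.30 ± 0.0742 (adjusted p = 0.00162), 0.30 in batch A and 0.31 in batch B.

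Abce1 (chr8:79683462-79711740), the only member of subfamily E, splits ribosomes after termination. It fell slightly, from 1469, 1539 and 1618 in WT to 1298, 1448 and 1573 in TG, and 6 TG mice lay below the WT range. On the log2 scale TG differed from WT by -0.09 ± 0.0356 (adjusted p = 0.0387), -0.10 in batch A and -0.08 in batch B. The call was lost without any 1 of 11 libraries (T61331_WT, T61333_WT, T61334_WT, T61345_WT, T_70256_WT, T_70262_WT and T_70264_WT, T60303_TG, T_69524_TG, T_69531_TG and T_70261_TG), with adjusted p from 0.0510 to 0.0890, and with scaling by library size alone (-0.0155, adjusted p = 0.743). None of the 3 members of subfamily F passed: Abcf2 had 0.10 ± 0.0543, Abcf1 0.09 ± 0.0461 and Abcf3 0.05 ± 0.0418, where 44.7% of all rows passed. Without T61340_TG they had 0.06, 0.06 and 0.03, and none passed. With scaling by library size alone all 3 passed as higher, at 0.17, 0.16 and 0.13, as did 32.0% of all rows. The 2 copy rows of Abcf1 did pass, at 0.16 ± 0.0621 (adjusted p = 0.0363) for Abcf1-2 and 0.17 ± 0.0582 (adjusted p = 0.0200) for Abcf1-3, so the result for this gene depended on which row was read. Reads that fit several copies were placed in a way that is not given in the sources used here.

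In subfamily G, 2 of 4 tested members rose, against 23.0% of all rows. Abcg4 (ENSMUSG00000032131, chr9:44273188-44288615, minus strand), a sterol exporter of neurons and astrocytes, had 1212, 1356 and 1483 normalized counts in WT and 1320.4, 1629 and 1774 in TG. All TG mice but T_69531_TG lay above the WT range. On the log2 scale TG exceeded WT by 0.27 ± 0.0486 (adjusted p = 8.74e-05), 0.36 in batch A and 0.22 in batch B. Its relative Abcg1 (chr17:31057675-31117988), which exports sterol to lipoproteins, did not pass: 1331, 1778 and 2170.4 in WT against 1429.8, 1711 and 1858 in TG, with the TG values inside the WT range. The log2 fold change of Abcg1 was -0.08 ± 0.050 (adjusted p = 0.215), with 0.03 in batch A and -0.13 in batch B.

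Abcg2 (chr6:58584523-58695676), the drug pump of the capillary wall known as breast cancer resistance protein, rose by little, from 298, 331 and 381 in WT to 348, 359 and 377 in TG. All TG values lay inside the WT range, in its upper part, and they were the tightest of any tested member in TG, with a coefficient of variation of 3.05%. The rise was 0.13 ± 0.0487 on the log2 scale (adjusted p = 0.0322), 0.12 in batch A and 0.14 in batch B. The call was lost without any 1 of 7 libraries (T61331_WT, T_69523_WT, T_69532_WT and T_70260_WT, T_69524_TG, T_70252_TG and T_70263_TG), with adjusted p from 0.0521 to 0.0628. Abcg3 had 0.06 ± 0.266 on 214 counts.

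**Figure D4:**
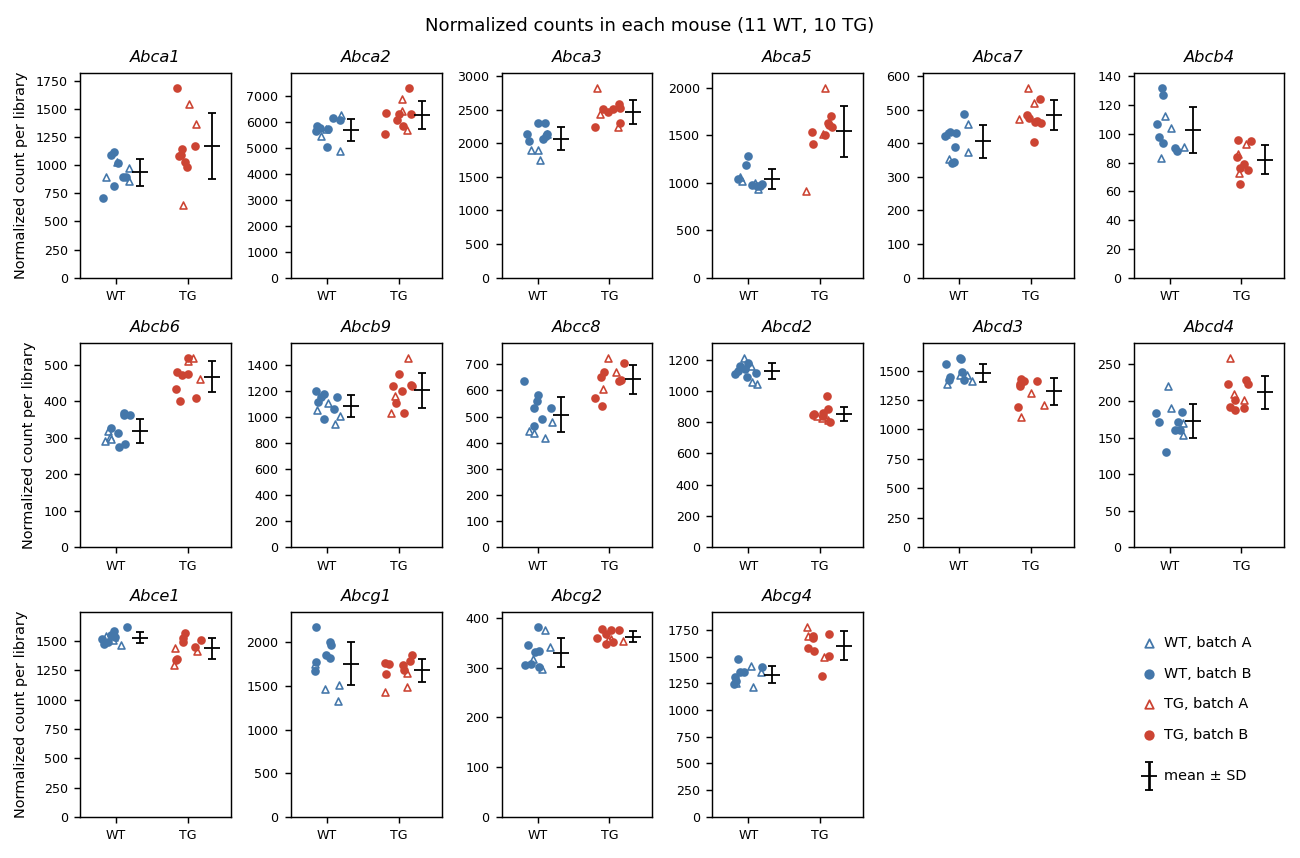
Normalized counts of 15 members past the test and of Abcg1 in each mouse, from 0, with open triangles for batch A, filled circles for batch B and black bars for the mean ± SD of 11 WT or 10 TG mice. Abcb6 and Abcd2 show TG and WT without overlap, and 1 open red triangle lies low for Abca1 and Abca5, T61340_TG with 649.6 and 917 counts.

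The batches were also fitted apart. In batch A alone 6 of 39 members passed, 4 higher and 2 lower, against 11.8% of all rows tested there. Abca3, Abcb6, Abcc8, Abcd2 and Abcg4 were among them. In batch B alone 12 of 40 passed, 8 higher and 4 lower, against 39.1% of all rows, the same 6 with Abca1, Abca5, Abca7, Abcb4, Abcd3 and Abcd4. The remaining 4 calls, Abca2, Abcb9, Abce1 and Abcg2, passed in neither batch alone. All 16 members had the same sign in A and in B, and 13 had the larger change in A. In the test of the difference between the batches, 0 of 39 members passed in edgeR and 0 in DESeq2, where 0 and 1 of all rows passed (0% and 0.00285%). At an unadjusted p under 0.05 there were 2 of 39, Abcc8 and Abca4 (p = 0.0179), against 5.64% of all rows. Without T61340_TG, 16 of 40 members passed, 11 higher and 5 lower, against 45.6% of all rows, with Abcc1 in place of Abcb9.

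**Figure D5:**
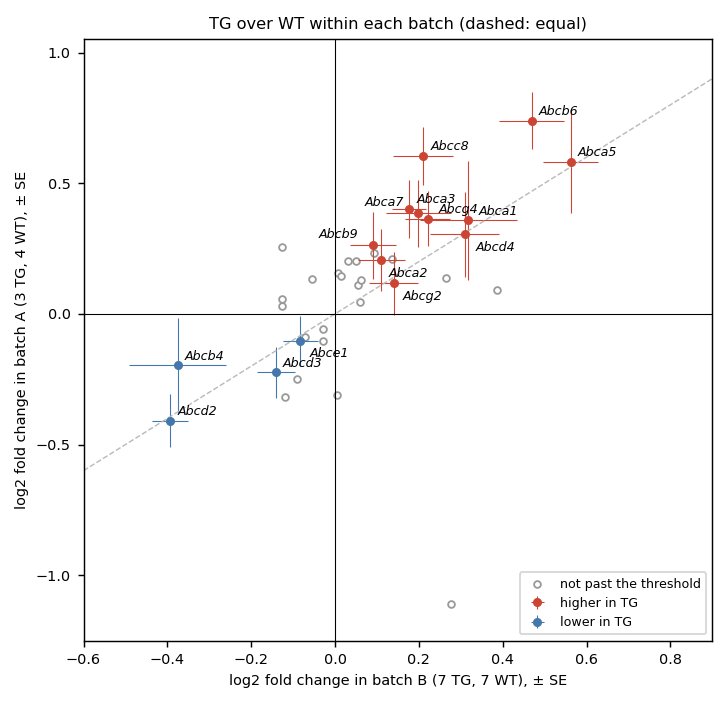
Log2 fold change of TG over WT fitted in batch A alone (vertical) against batch B alone (horizontal) for the tested members, with bars of 1 SE on 15 that passed in the joint fit and a dashed line where both are equal. All 15 have the same sign in both batches, and Abcc8 lies far above the line with 0.61 in A and 0.21 in B. The open point lowest on the plot is Abca4, with -1.11 in A and 0.28 in B.

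Genes known to work with the transporters were counted by list, and each count stands against 44.7% of all rows past the test, 23.0% higher and 21.7% lower. Of 13 sterol efflux partners 12 were tested, 3 rose and 2 fell. Nr1h2, which encodes LXRβ, rose by 0.19 on the log2 scale, and the lysosomal sterol carriers Npc2 and Npc1 rose by 0.22 and 0.13. Rxra, the partner receptor of LXR, had -0.16 and Lcat, which esterifies cholesterol on lipoproteins, -0.22, both lower past the test. Apoe (0.04), the main acceptor of exported cholesterol in brain, and Nr1h3 (-0.0084), which encodes LXRα, did not pass. Apoa1 was not tested, with 52 counts. Of 10 peroxisome and cobalamin partners of subfamily D, 2 rose (Acot8 at 0.29 and Pex3 at 0.23) and 4 fell. Among the falls were Mmachc, which processes cobalamin, at -0.44, the peroxisomal thiolase Acaa1a at -0.19, and the membrane protein chaperone Pex19 at -0.10. Lmbrd1, the partner of Abcd4, had 0.04 and did not pass.

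Of 12 iron, haem and iron-sulphur partners of the mitochondrial transporters 3 rose and 3 fell (23.0% and 21.7% of all rows). The rises were Slc25a28, a mitochondrial iron importer, at 0.49, the assembly factor Isca2 at 0.30 and the cysteine desulphurase Nfs1 at 0.25. Isca1 had -0.46, Glrx5 -0.20 and Fech, the last enzyme of haem synthesis, -0.15, all lower past the test. Of 11 ribosome partners of subfamilies E and F, 5 rose, against 23.0% of all rows: Eif2s2 at 0.26, Gcn1 at 0.21, the kinase Eif2ak4 at 0.19, Eif2s1 at 0.17 and Eif5 at 0.12. Eif3j1 fell, at -0.15, and Pelo (0.08) and Hbs1l (0.01), which act with Abce1, did not pass. Of 8 solute carriers of the brain barriers, Slc7a5 rose by 0.78 and the glucose carrier Slc2a1 by 0.18, while Slc22a8 had -0.29 and Slco1c1 -0.18, both lower past the test, so 4 of 8 passed against 44.7% of all rows. Neither K-ATP pore subunit of 2 changed past the test. Median log2 fold changes were 0.03 for sterol efflux partners, -0.07 for peroxisome partners, -0.03 for iron partners, 0.08 for ribosome partners, -0.03 for barrier carriers and -0.0089 for pore subunits.

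Gene length was looked at across the family. The median exon model was 6389 bases over the tested members and 4139 over all tested rows with a length, and the median gene span was 60.3 and 21.9 kb. Spearman's rho between log2 fold change and exon length was 0.10 over 39 members and -0.05 over 16121 rows, and with gene span -0.18 and -0.12, given as descriptions across genes.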

How the data were processed

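Total RNA with an integrity number above 7 was sequenced as messenger RNA in paired reads of 100 bases. The deposited counts per gene (48474 rows, 21 columns) were made by the authors against GRCm38. The submitters' processing notes name HISAT, HISAT2, Bowtie, Bowtie2 and RSEM for mm10, without roles. The values are whole numbers. From these, edgeR 4.0.16 in R 4.3.3 was run with TMM scaling, filterByExpr (minimum count 10, minimum total 15), batch as covariate and a two-sided quasi-likelihood test. Normalized counts are counts divided by relative TMM library size. A log2 fold change is TG over WT. SEs come from the coefficient and its test. Alternatives, DESeq2 1.42.0 among them, are given in the closing section. Levels per length use GENCODE vM21 exon models. In data simulated for TG against WT with 18131 genes, 47 of 67 genes changed by 0.3 on the log2 scale were called, 64 of 67 at 0.6 and 65 of 66 at 1, with 9 unchanged genes called. The simulation gave all genes the same dispersion (spread between mice), made no library deviate and changed far fewer genes than the 44.7% that passed here. Its rates therefore do not measure the power or error of the test on these data. Members and lists were chosen with earlier results of these data known. Members past the threshold are described in full, and so is Abcg1; others are named with their log2 fold change, and untested members with their counts. Each mouse is 1 library, and the spread is between mice. Rows with a copy suffix (2553 rows, 4.11% of counts) stayed in the fit. Results for 2 members and 1 partner gene are not reported here, though counts include them.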

Additional observations from a re-analysis of the deposited data

Results flagged for a closer look

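In 4 of 37 members 1 TG mouse lay far from the other 9, measured as its gap to the nearest one over the range of the group (above Dixon's critical value at 95%). For a single member chance gives about 1 in 20. The members share the same mice, and T61340_TG was the mouse apart for Abca8b, Abca6 and Abcf3. The 4 are thus not independent, and their number cannot be set against 1 in 20. Abca8b had a ratio of 0.649, with T61340_TG at 226 normalized counts against 351 to 419 in the others. Abca6 had 0.509, with T61340_TG at 33.3. For Abcf3 the ratio was 0.473, with T61340_TG above. For Abcd2 it was 0.503, with T_69531_TG above the others at 969 and below every WT mouse.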

How the results depend on the processing

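Of the 16 calls, 11 held when each of the 21 libraries was left out in turn (among them Abca3, Abca5, Abca7, Abcb4, Abcb6, Abcc8, Abcd2, Abcd3, Abcd4 and Abcg4), and 5 did not. In these fits 9 to 12 members were higher and 4 to 5 lower, 25 to 29 genes of the partner lists passed, and 7805 to 8363 genes passed in all. Scaling by library size alone gave 19 members higher and 3 lower, moved the median of all genes to 0.08, and made 67.9% of all calls higher (5832 higher, 2752 lower) against 51.4% (4190 and 3964). Under it Abcf1, Abcf2, Abcf3, Abcb1b, Abcb8, Abcc1 and Abcc4 were among those that also passed as higher and Abcd3 and Abce1 were not called. Batch A alone gave 2195 genes, 4 members higher, 2 lower and 6 partner genes, with 7 mice. Abcb9 also lost its call in DESeq2 without batch, with Xist as covariate and without T61340_TG and T60303_TG. Abce1 lost it in the latter 2, in edgeR without batch and with no filter, and Abcg2 with no filter. No called member changed sign. Signs changed for members near 0: by library size, Abcb1a (0.0383), Abcc3 (0.0773), Abcc6 (0.0142) and Abcc9 (0.0202). Abcc3 was at 0.000328 with upper-quartile scaling, 0.0129 with no filter, 0.00073 with 10 counts in every library, 0.0342 with Xist, 0.00212 without copy rows and 0.25 in batch A. In batch A Abcc6 was at 0.0567 and Abcg1 at 0.0305, and in batch B Abca4 at 0.28, Abca8a at 0.0038 and Abcc10 at -0.0542. Without T61340_TG and T60303_TG Abcc9 was at 0.0157 and Abcg3 at -0.0668. With 1 library out, Abca4 ranged from -0.330 (without T_70261_TG) to 0.0154 (without T61334_WT), Abcc3 from -0.0553 to 0.0396, Abcc5 from -0.00641 to 0.106, Abcc6 from -0.144 to 0.00872, Abcc10 from -0.0429 to 0.0679 and Abcg3 from -0.111 to 0.142. The cause was not tested in any of these. No paired analysis was possible because the mice carry single numbers that the groups do not share.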
